A study of Homo sapiens with 12 samples.

Results

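The genes described here are 42 targets and regulators of the transcription factor NF-kB, listed by name: interleukins, chemokines, colony-stimulating factors, prostaglandin enzymes, adhesion molecules, Rel subunits and feedback inhibitors. They were followed in MDA-MB-231 cells, a long-established line from a human breast cancer of the basal-like, mesenchymal type. Of the 42, 39 had a probe set annotated to a single gene symbol and were measured, among 11963 genes in all. CSF2 and BIRC3 had no probe set named in the annotation used, and SOD2 had only probe sets that carry another symbol as well. Each gene was read from 1 probe set, the one with the highest mean over the 12 arrays.

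The cells had received lentiviral particles with a short hairpin RNA (shRNA), in 4 groups of 3 biological replicates with 1 array each. They were cells with HDAC5 shRNA, cells with LSD1 shRNA, and a scramble set for each, of which only that of LSD1 carries a tag. HDAC5 belongs to the class IIa histone deacetylases, while LSD1 (gene symbol KDM1A) is a demethylase of histone lysines. The untagged scramble set was taken as the control of HDAC5 shRNA, because the other set is tagged LSD1 and the series lists the treatments in that order. The sources used here do not give whether an shRNA was a single hairpin or a pool, whether transduced cells were selected, or what separates the biological replicates. The p-values therefore measure the spread between these samples only. In bulk RNA, fewer cells of a type and less RNA per cell cannot be told apart.

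NF-kB is a dimer of Rel proteins that inhibitors of the IkB family hold in the cytoplasm. Signals from interleukin-1, tumour necrosis factor or Toll-like receptors lead to the breakdown of the inhibitor, and the dimer then enters the nucleus and binds kB sites in DNA. Its targets include cytokines and chemokines that recruit and activate leukocytes, and also its own inhibitors, such as NFKBIA and TNFAIP3, which close a feedback loop. Basal-like breast cancer lines are known for steady NF-kB activity and for secreting IL-6 and IL-8.

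RefSeq promoters (250 bases before to 50 after a transcription start, GRCh38.p14) were available for 30 of the 39 measured genes. Of these 30, 14 (46.7%) held a match to the kB consensus on either strand, against 7.09% of the 27305 genes in the promoter table. The 14 genes were IL6, CXCL1, CXCL2, CXCL3, CXCL5, CXCL6, CXCL10, CCL20, VCAM1, NFKB1, NFKB2, NFKBIA, TNFAIP3 and TNIP1. The same count of 14 was found in the 250 upstream bases alone. A match to the AP-1 motif TGANTCA, searched on both strands, was in 5 of 30 (16.7%), against 9.37% of all genes in the table. These are matches of letters and not measured binding sites. The following stretches show matches in capitals, each with 20 bases on either side, read 5′ to 3′ on the gene's strand. The first 5 are shown because they belong to neighbouring chemokine genes, of which 3 fell with HDAC5 shRNA and 2 were too dim to follow, and the others as examples from further genes that fell. NFKB2 and TNIP1, which also fell and held a match, are not shown.
CXCL1: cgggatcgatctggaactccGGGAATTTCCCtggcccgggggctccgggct
CXCL2: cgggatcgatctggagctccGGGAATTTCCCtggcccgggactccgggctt
CXCL3: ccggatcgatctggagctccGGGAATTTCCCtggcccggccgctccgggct
CXCL5: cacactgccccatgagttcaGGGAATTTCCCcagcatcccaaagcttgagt
CXCL6: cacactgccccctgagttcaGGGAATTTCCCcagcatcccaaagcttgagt
CCL20: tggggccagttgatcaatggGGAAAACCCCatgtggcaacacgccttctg
IL6: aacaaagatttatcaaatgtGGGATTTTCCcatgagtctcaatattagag
NFKBIA: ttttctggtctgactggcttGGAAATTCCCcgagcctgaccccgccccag
TNFAIP3: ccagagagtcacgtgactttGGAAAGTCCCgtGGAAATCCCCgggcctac

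On GRCh38.p14 these stretches lie at chr4:73869294-73869344 (CXCL1, plus strand), chr4:74099243-74099293 (CXCL2, minus), chr4:74038738-74038788 (CXCL3, minus), chr4:73998738-73998788 (CXCL5, minus) and chr4:73836568-73836618 (CXCL6, plus). Those of the other genes lie at chr2:227813743-227813792 (CCL20, plus), chr7:22727107-22727156 (IL6, plus), chr14:35404801-35404850 (NFKBIA, minus) and chr6:137867172-137867221 (TNFAIP3, plus). All lie upstream of the transcription start. The TNFAIP3 stretch holds 2 matches, which begin 67 and 55 bases before the start, and its 20 bases on either side are those of the first. In the 5 chemokine promoters 2 overlapping matches make a block of 11 bases, which was identical in all 5. It starts 79 bases before the start of CXCL1 and CXCL3, 78 before that of CXCL2, 91 before that of CXCL5 and 90 before that of CXCL6. Over the block and the 20 bases before it, CXCL1 and CXCL2 shared 30 of 31 bases, as did CXCL2 and CXCL3, and CXCL5 and CXCL6. Between those 2 sets of genes 18 to 19 of 31 bases were shared. In gene order on chromosome 4 the protein-coding neighbours are CXCL8, CXCL6, PF4V1, CXCL1, PF4, PPBP, CXCL5, CXCL3 and CXCL2. The promoters of CXCL8, ICAM1, PTGS2, IL1A, IL1B and TNF in the table held no match to these letters in this window.

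**Figure D1:**
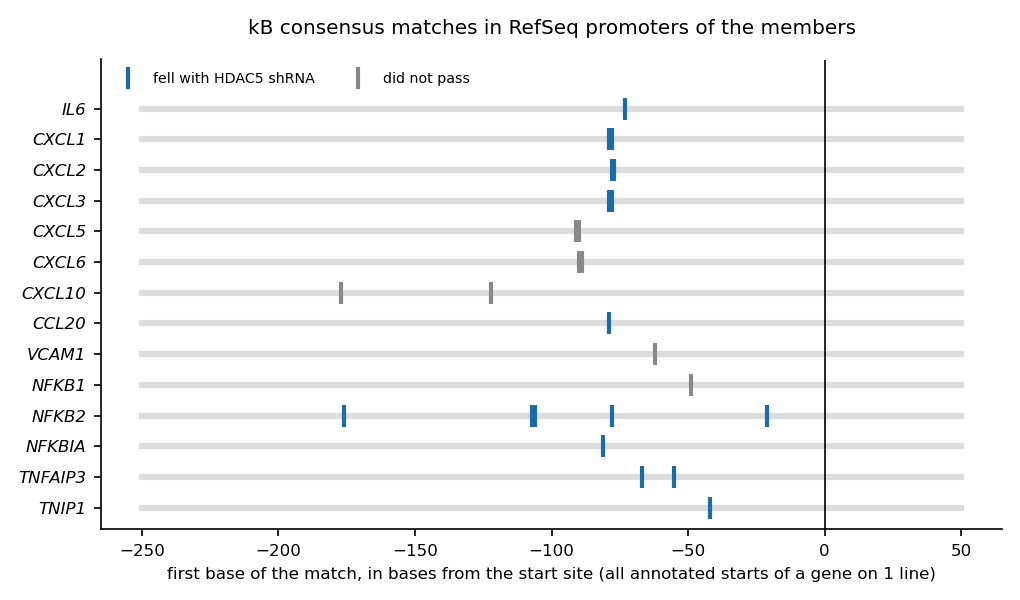
Position of each kB consensus match, in bases from the transcription start, in the RefSeq promoters of the 14 genes with a match; grey bars are the windows searched. Blue ticks mark genes that fell with HDAC5 shRNA and grey ticks genes that did not pass the test; the matches of CXCL1, CXCL2 and CXCL3 begin 79, 78 and 79 bases before the start.

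The targeted transcripts were lower where the labels say so. HDAC5 fell from 7.40 ± 0.17 to 6.29 ± 0.18 (log2, mean ± SD, n = 3; limma adjusted p = 1.61e-05), and KDM1A fell from 9.72 ± 0.09 to 6.63 ± 0.17 with LSD1 shRNA (limma adjusted p = 6.99e-05). Array medians were 6.59 to 6.65 in the HDAC5 experiment and higher, 7.05 to 7.15, on the LSD1 arrays, so levels were compared within an experiment. Markers of the line (VIM, CD44, CAV1, AXL, MSN) had array means of 12.3 to 12.8. Of 4 genes listed as low in the line (ESR1, PGR, ERBB2, EPCAM), 3 were above the lower quartile of the arrays in each group, all but PGR. EPCAM rose with HDAC5 shRNA (0.67, SE 0.09, limma adjusted p = 0.000159). Of 12 measured blood cell markers, 6 were above the lower quartile of the arrays in each group. PTPRC, the pan-leukocyte marker, was below it throughout. Of the 12 markers 0 were called with either shRNA, against 44.5% of all genes with HDAC5 shRNA and 4.92% with LSD1 shRNA. Of 8 fibroblast and endothelial markers 4 fell with HDAC5 shRNA and 1, LUM, rose with LSD1 shRNA. LUM and VWF, one of the 4, were below the lower quartile in all groups. Averaged over all 8 fibroblast and endothelial markers, the arrays stood at 5.10 in the HDAC5 scramble set and 4.79 to 4.85 with HDAC5 shRNA. In the LSD1 experiment the same averages were 5.24 to 5.39 with scramble and 5.57 to 5.83 with LSD1 shRNA. The ACTB 3′ minus 5′ signal, a sign of RNA integrity, was 0.90 ± 0.06 with scramble and 0.68 ± 0.08 with HDAC5 shRNA (SD, n = 3 each), and 1.30 ± 0.06 and 1.43 ± 0.12 for LSD1. Neither difference reached p = 0.05 in an exact two-sided permutation test (0.1 and 0.2), which cannot go below 0.1 with 3 arrays against 3. The part of these shifts in the results was not tested.

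The first comparison asks which of these genes differed between HDAC5 shRNA and its scramble set. With HDAC5 shRNA 19 of the 39 genes fell and 3 rose, at a limma adjusted p under 0.05 over all genes. The share called was 56.4%, against a background of 44.5% of all genes, the share that fell was 48.7% against 23.2%, and the share that rose was 7.69% against 21.3%. At least 2-fold decreases made up a larger share than in the background: 7 genes (17.9%) fell that far, against 1.81% of all genes. The 7 were PTGS2, ICAM1, IL1A, CCL20, CXCL8, CXCL1 and CXCL2. A single member, IL11, rose at least 2-fold (background 1.66%). The median change of the 39 genes was -0.20 on the log2 scale, and that of all genes was -0.02. The shRNA arrays lay wholly below the scramble arrays for 22 members (56.4%, background 26.6%) and wholly above them for 3 (7.69%, background 24.1%). The members were chosen with earlier results of these data known, so these shares and those below are not independent evidence.

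Among the interleukins, IL1A, IL1B and IL18 fell, and IL24 and IL15, which acts on T cells and natural killer cells, were not called (0.00, SE 0.08, and -0.03, SE 0.08). IL1A encodes interleukin-1 alpha, an alarm cytokine that itself activates NF-kB. On the scramble arrays IL1A read 5.66, 5.94 and 5.92 (log2), and with HDAC5 shRNA 4.22, 4.41 and 4.32. The groups were apart by more than 1 log2 unit, with a change of -1.52 (SE 0.09, limma adjusted p = 5.61e-07) or a 2.87-fold decrease. The mean with HDAC5 shRNA was under the arrays' lower quartile (4.59 to 4.65), where signals flatten out, so this size is not exact. IL1B, the secreted interleukin-1 beta gene, gave 6.69, 6.49 and 6.46 against 6.03, 5.86 and 5.70. Its arrays did not overlap either, with a change of -0.68 (SE 0.10, limma adjusted p = 0.000217). IL18, a caspase-processed cytokine of the interleukin-1 family, gave 9.27, 9.23 and 9.30 against 8.50, 8.77 and 8.55. The scramble values of IL18 lay within 0.1 of each other, and the change was -0.66 (SE 0.07, limma adjusted p = 2.74e-05).

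The IL-6 family split in direction. IL6, a cytokine that signals through gp130 and STAT3, read 7.10, 7.29 and 6.91 on the scramble arrays and 6.02, 6.30 and 6.43 with HDAC5 shRNA. It fell by 0.85 (SE 0.12, limma adjusted p = 0.000217), although with the spread estimated over all 12 arrays it did not pass (limma adjusted p = 0.0727). IL11, which uses the same gp130 chain and is linked to bone metastasis of breast cancer cells, moved the other way. Its scramble arrays read 7.56, 7.56 and 7.66, and its HDAC5 shRNA arrays 8.99, 8.66 and 8.83. Every shRNA array was higher than every scramble array by about 1 log2 unit or more. IL11 rose by 1.24 (SE 0.08, limma adjusted p = 1e-06), or 2.36-fold. LIF, a further gp130 cytokine, fell by 0.30 (SE 0.06, limma adjusted p = 0.00136), and it did not pass in the fit over 12 arrays (limma adjusted p = 0.274).

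Of the 6 ELR chemokines, which attract neutrophils through CXCR1 and CXCR2, 4 fell and 2 were not called. CXCL8, which encodes interleukin-8, read 10.61, 10.56 and 10.50 on the scramble arrays and 9.12, 9.40 and 9.28 with HDAC5 shRNA. These groups were clearly apart, with a change of -1.29 (SE 0.07, limma adjusted p = 2.53e-07), a 2.45-fold decrease. CXCL1 gave 7.76, 7.94 and 7.30 against 6.23, 6.65 and 6.41, a change of -1.24 (SE 0.15, limma adjusted p = 9.04e-05). CXCL2 gave 7.85, 7.69 and 7.26 against 6.27, 6.59 and 6.58, a change of -1.12 (SE 0.14, limma adjusted p = 0.000102). In both genes the third scramble array was the lowest of its group and still lay above every shRNA array. CXCL1 did not pass in the fit over 12 arrays (limma adjusted p = 0.0743), while CXCL2 did (0.0475). CXCL3 gave 6.12, 6.17 and 6.07 against 5.28, 5.56 and 5.67, a smaller change of -0.62 (SE 0.10, limma adjusted p = 0.000449). CXCL5 and CXCL6, whose promoters carry the same capital block as those of CXCL1, CXCL2 and CXCL3, were below the lower quartile in all 4 groups, so the arrays could not follow them.

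Of the 5 other chemokines CCL20 alone was called. CCL20, the ligand of CCR6 on dendritic cells and lymphocytes, read 5.86, 5.80 and 5.63 on the scramble arrays and 4.29, 4.46 and 4.28 with HDAC5 shRNA. It fell by 1.42 (SE 0.08, limma adjusted p = 4.91e-07), or 2.67-fold, and its shRNA values lay below the lower quartile, so the size is not exact. CXCL10, CXCL12, CCL2 and CCL5, which draw T cells, monocytes or stem cells, had changes between -0.18 and 0.16 and did not pass. CCL5 was below the lower quartile in both groups and CXCL10 with HDAC5 shRNA, so little can be read from their values. CSF1, the macrophage colony-stimulating factor gene, read 9.02, 9.06 and 8.86 against 8.11, 8.16 and 8.10. Its groups were apart by more than their own spread, and the change was -0.85 (SE 0.06, limma adjusted p = 1.87e-06). CSF3 (5.87 ± 0.03 and 5.85 ± 0.01, SD, n = 3 each) did not pass. TNF, the tumour necrosis factor gene, was below the lower quartile in all groups.

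PTGS2 had the largest change of the 39 genes. It encodes cyclooxygenase-2, which makes the precursor of the prostaglandins. The scramble arrays read 9.62, 9.88 and 9.59 and the HDAC5 shRNA arrays 7.65, 7.94 and 7.94, a change of -1.85 (SE 0.10, limma adjusted p = 2.39e-07) or a 3.61-fold decrease. PTGES, the prostaglandin E synthase that acts after it, rose by 0.26 (SE 0.06, limma adjusted p = 0.00349), and did not pass in the fit over 12 arrays (0.555). ICAM1, the adhesion molecule that leukocyte integrins bind, read 7.81, 7.80 and 7.56 against 6.07, 6.08 and 6.16. The 3 shRNA arrays lay within 0.1 of each other, far below the scramble arrays, with a change of -1.62 (SE 0.08, limma adjusted p = 1.29e-07). VCAM1, a further leukocyte adhesion molecule, was below the lower quartile in all groups.

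Of the 4 Rel subunits 2 fell, and of the 4 feedback inhibitors 3 fell. RELB, the non-canonical partner subunit, fell by 0.53 (SE 0.10, limma adjusted p = 0.00129). NFKB2, the precursor of p52, fell by 0.25 (SE 0.07, limma adjusted p = 0.0147), and it passed in 8 of 12 alternative settings. NFKB1 (p50) and RELA (p65), the canonical pair, had changes of -0.04 (95% interval -0.15 to 0.07) and -0.05 (-0.17 to 0.08) and did not pass. NFKBIA, which encodes the inhibitor IkB alpha, read 10.69, 10.86 and 10.55 on the scramble arrays and 10.05, 10.02 and 10.05 with HDAC5 shRNA. The shRNA arrays were nearly equal and all below the scramble arrays, a change of -0.66 (SE 0.07, limma adjusted p = 2.34e-05). TNFAIP3, the ubiquitin-editing inhibitor A20, fell by 0.31 (SE 0.08, limma adjusted p = 0.00851), and TNIP1, its binding partner, fell by 0.36 (SE 0.07, limma adjusted p = 0.0015). Neither passed in the fit over 12 arrays (limma adjusted p = 0.233 and 0.155). NFKBIE (IkB epsilon) was lower on each shRNA array by a small amount (-0.08, SE 0.06) and did not pass. Of the remaining targets and signalling genes, TNFAIP2 fell by 0.55 (SE 0.08, limma adjusted p = 0.000205). BIRC2, which encodes the ubiquitin ligase cIAP1, rose by 0.11 (SE 0.04, limma adjusted p = 0.047), a call that held in 3 of 12 alternative settings. IRAK1, a kinase of the interleukin-1 receptor, came close to the threshold without passing (-0.12, SE 0.04, limma adjusted p = 0.0516). TNFAIP6, which binds hyaluronan, and TRAF1 did not pass, and TNFAIP6 was below the lower quartile in all groups.

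**Figure D2:**
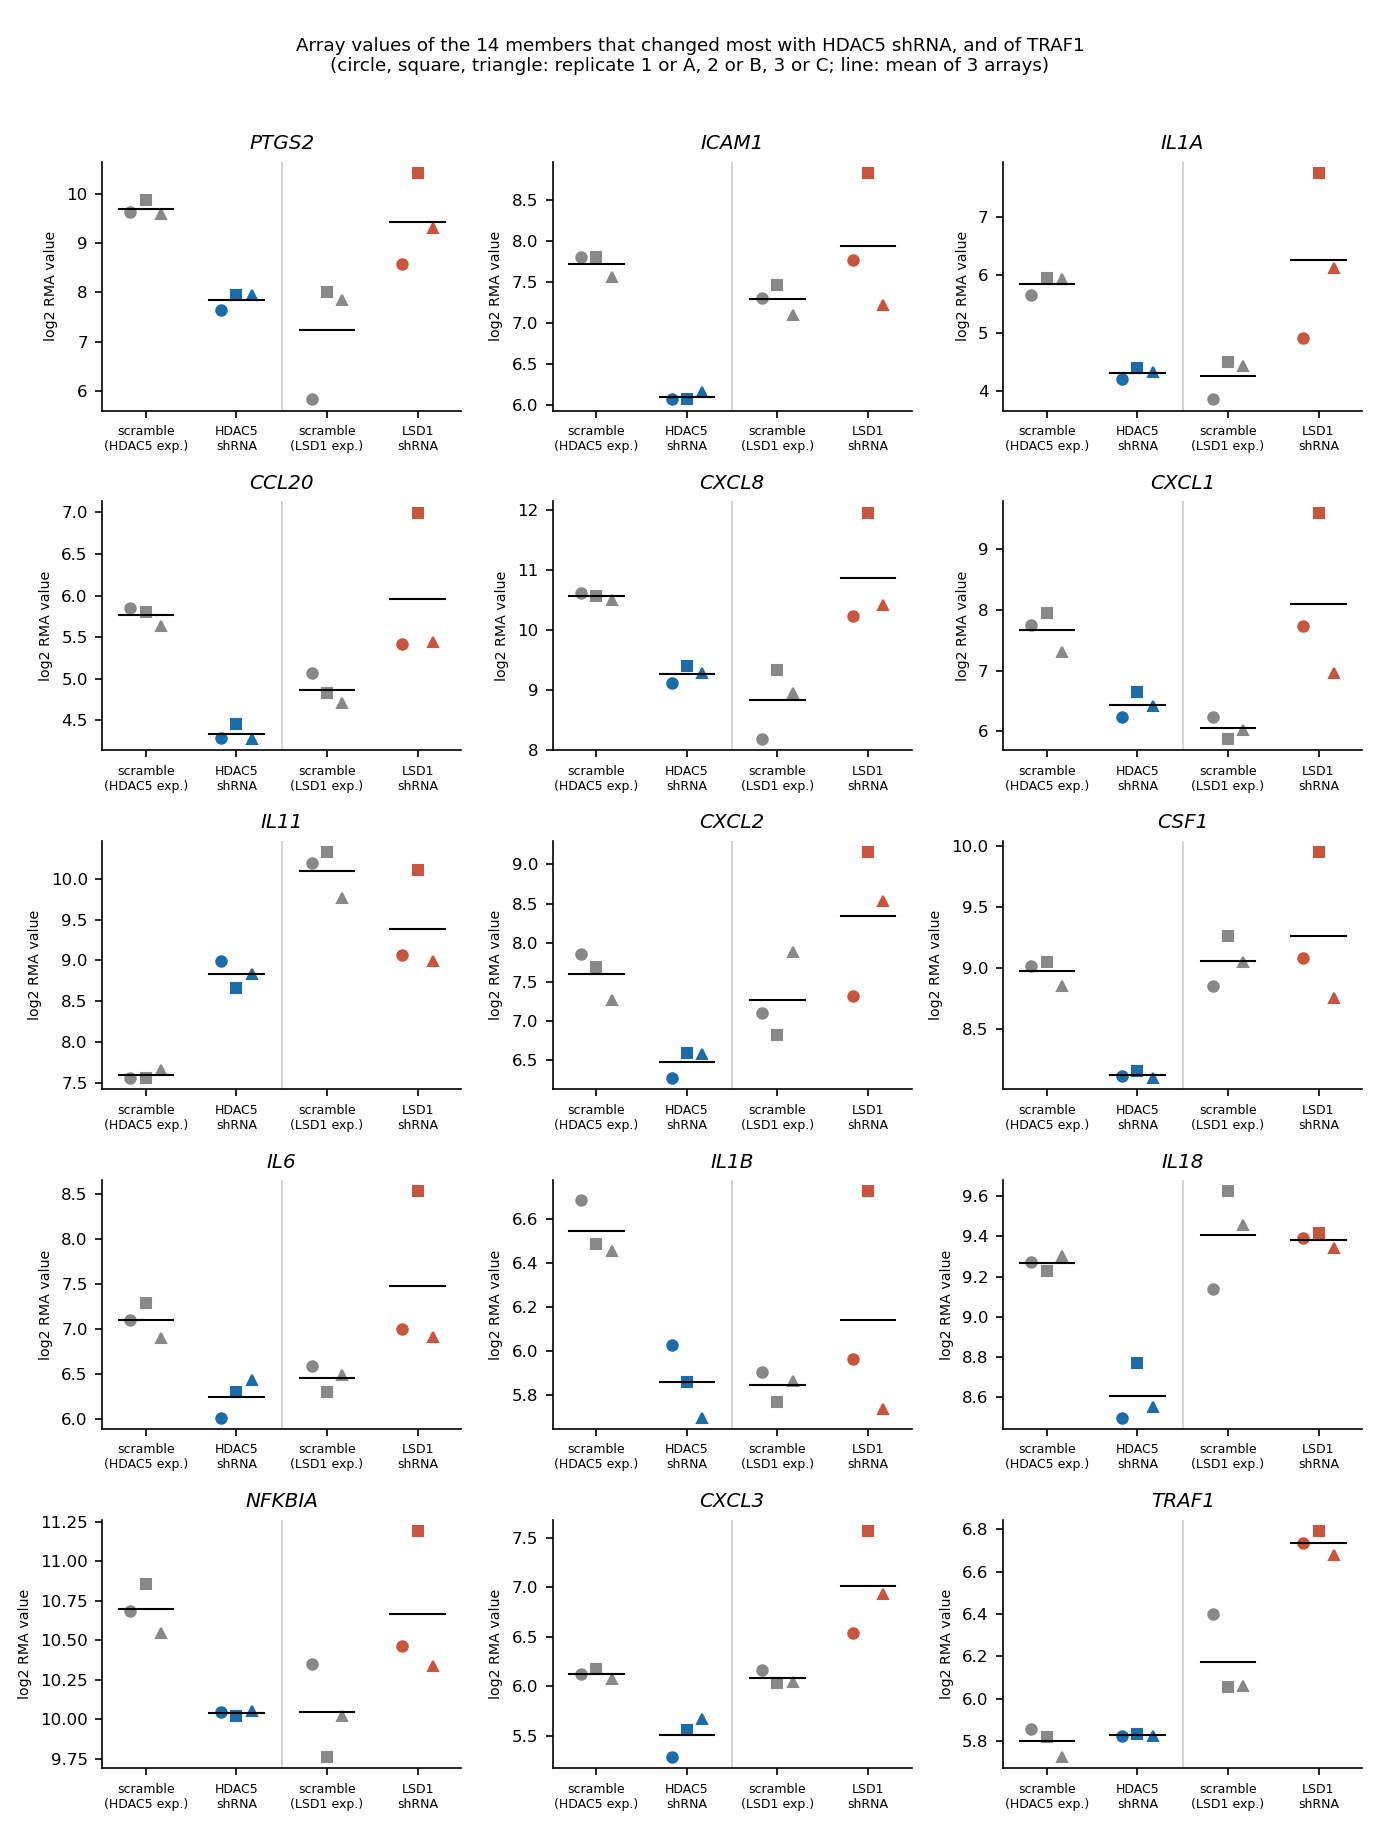
Log2 RMA value on each of the 12 arrays for the 14 genes with the largest HDAC5 shRNA changes and for TRAF1; symbols mark replicates, lines the mean of 3 arrays, and each panel has its own axis that does not start at 0. In every panel but those of IL11 and TRAF1 the 3 HDAC5 shRNA arrays lie below their 3 scramble arrays, and the second LSD1 shRNA array is the highest of its group in all 15.

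Some genes were read by further probe sets, which match other stretches of the transcripts. There were 21 such sets for 16 of the members, and 14 of them belonged to genes called with HDAC5 shRNA. Of these 14, 7 gave the same call, 7 gave none and 0 gave the opposite call (limma over all probe sets). ICAM1 fell with both further sets, by 2.54 (SE 0.17) and by 0.72 (SE 0.09). The second set of CXCL8 fell by 1.13 (SE 0.12), that of IL1B by 0.56 (SE 0.08), and that of IL11 rose by 0.54 (SE 0.10). The further sets of PTGES (0.39, SE 0.09) and NFKB2 (-0.30, SE 0.09) gave the call of the set used. CSF1 rested on its brightest set: the 3 others had changes of -0.02, 0.06 and 0.00 and were not called, and with the mean of its sets CSF1 changed by -0.20. The second set of IL1A (0.02, SE 0.06) was not called, and the mean over the sets of IL1A changed by -0.75. That second set read 4.52 with scramble, below the lower quartile, so it could hardly show a fall. TNFAIP2 (-0.13, SE 0.09), TNFAIP3 (-0.12, SE 0.08) and NFKB2 (-0.05, SE 0.06) each had a set that did not pass. With scramble that of NFKB2 read 3.02, below the lower quartile, and that of TNFAIP2 read 4.65, near it. With the mean of sets, TNFAIP2 changed by -0.34. The sets used for CXCL2 and CXCL8 are of a kind that can bind related transcripts, so reads of neighbouring ELR chemokines may not be fully separate.

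**Figure D3:**
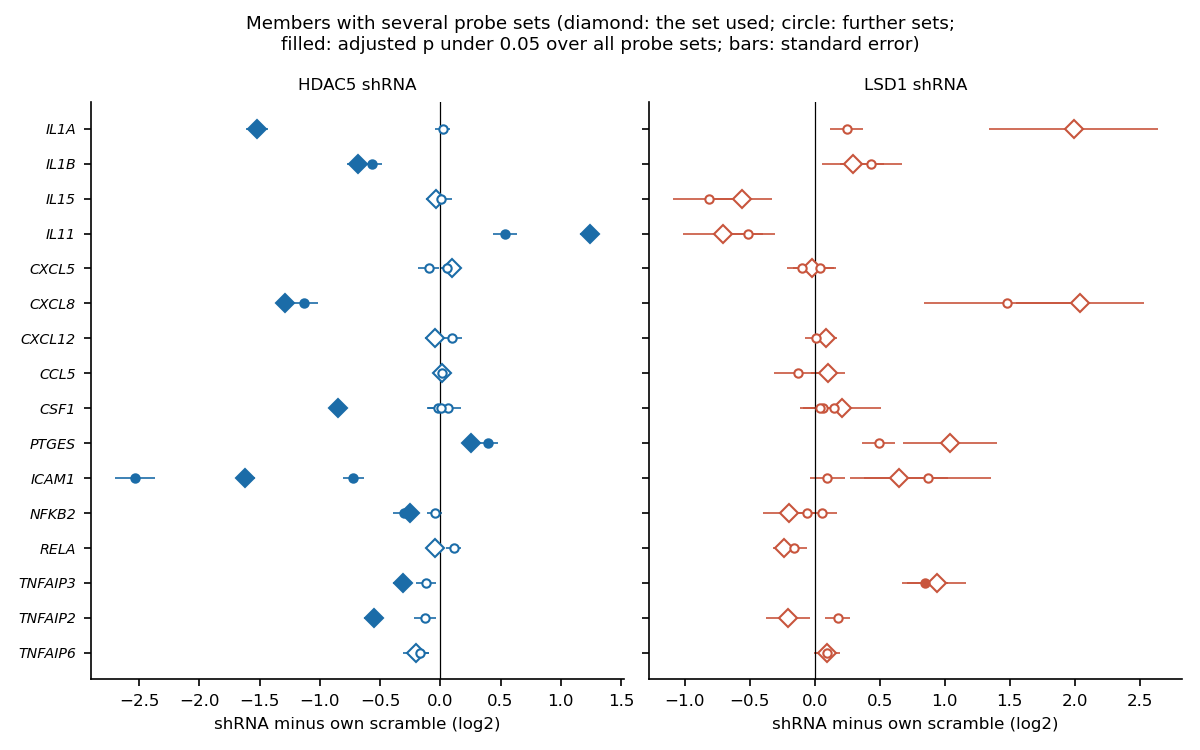
Log2 change of each probe set of the 16 genes with several, for HDAC5 shRNA (left) and LSD1 shRNA (right); diamonds are the sets used, circles the further sets, filled symbols passed the threshold over all probe sets, and bars are standard errors. With HDAC5 shRNA the 3 sets of ICAM1 all fell, while 3 of the 4 sets of CSF1 sit near 0.

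The second comparison asks the same of LSD1 shRNA. With LSD1 shRNA 1 of the 39 genes passed the threshold (2.56%, background 4.92%, or 2.93% for genes that rose): TRAF1, a TNF receptor adaptor and NF-kB target, read 6.40, 6.05 and 6.06 on the scramble arrays and 6.73, 6.79 and 6.68 with the shRNA. Its shRNA arrays lay wholly above the scramble arrays, and it rose by 0.56 (SE 0.11, limma adjusted p = 0.0399), or 1.48-fold. This call was lost when any array but scramble A was left out (limma adjusted p = 0.0674 without LSD1 shRNA array 2). At an unadjusted p under 0.05 there were 17 genes (43.6%, background 22.0%), of which 14 were higher (background 12%). The 3 lower ones were IL15, CXCL6 and RELA. The median change of the 39 was 0.25, against 0.01 for all genes. The shRNA arrays lay wholly above the scramble arrays for 12 members (background 14.3%) and wholly below for 1, RELA (background 12.7%).

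Several genes had large values with wide errors, and the second LSD1 shRNA array stood above the other two. IL1A read 3.86, 4.51 and 4.43 on the scramble arrays and 4.91, 7.75 and 6.12 with LSD1 shRNA, a value of 1.99 (SE 0.65, limma adjusted p = 0.14). PTGS2 read 5.84, 8.01 and 7.86 against 8.57, 10.41 and 9.30, a value of 2.19 (SE 0.68, limma adjusted p = 0.123). In both genes every shRNA array was above every scramble array, yet the LSD1 shRNA arrays spread over more than 1 log2 unit. The scramble arrays of PTGS2 spread as widely (SD 1.21, against 0.93 with LSD1 shRNA), with scramble A far below the others. The scramble mean of IL1A, like that of CCL20, lay below the lower quartile of these arrays (5.18 to 5.27), so their sizes are not exact. CXCL8 read 8.19, 9.34 and 8.95 against 10.24, 11.95 and 10.42 (2.04, SE 0.50, limma adjusted p = 0.07). CXCL1 read 6.23, 5.87 and 6.03 against 7.73, 9.61 and 6.96 (2.06, SE 0.61, limma adjusted p = 0.111). These 2 neutrophil chemokines also had no overlap between the groups, with the second array again the highest.

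CXCL3 gave 6.17, 6.03 and 6.05 against 6.53, 7.57 and 6.93, a value of 0.93 (SE 0.24, limma adjusted p = 0.0806). CCL20 gave 5.07, 4.83 and 4.71 against 5.42, 7.00 and 5.44, a value of 1.08 (SE 0.41, limma adjusted p = 0.19). IL6 gave 6.59, 6.30 and 6.49 against 7.00, 8.53 and 6.91, a value of 1.02 (SE 0.41, limma adjusted p = 0.212). These 3 genes were higher on every LSD1 shRNA array, by far the most on the second. CXCL2 (7.10, 6.82 and 7.89 against 7.32, 9.16 and 8.53) overlapped between the groups. NFKBIA (10.35, 9.76 and 10.02 against 10.46, 11.19 and 10.34) overlapped by a narrow margin. In these 2 genes the second shRNA array was again the highest. ICAM1 gave 7.30, 7.47 and 7.10 against 7.77, 8.82 and 7.22. CSF1 gave 8.85, 9.27 and 9.05 against 9.08, 9.95 and 8.76. IL1B gave 5.90, 5.77 and 5.87 against 5.97, 6.72 and 5.74. All 3 overlapped between the groups and were highest on the second shRNA array. IL18 gave 9.14, 9.62 and 9.46 against 9.39, 9.42 and 9.34, a value of -0.02 (95% interval -0.34 to 0.30). IL11 was lower rather than higher, at 10.19, 10.33 and 9.77 against 9.06, 10.11 and 9.00 (-0.71, SE 0.31, limma adjusted p = 0.251). TNFAIP3, whose values are given here because it came near the threshold, a choice made after seeing them, read 7.95, 7.58 and 7.69 against 8.44, 9.19 and 8.40 (0.94, SE 0.23, limma adjusted p = 0.0689). Its further probe set had a value of 0.85 (SE 0.17) and passed over all probe sets (limma adjusted p = 0.0476). The other 23 members, besides the 14 genes followed here, TRAF1 and TNFAIP3, had LSD1 values between -0.56 (IL15) and 1.04 (PTGES) and did not pass.

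Averaged over the 39 genes and set against the scramble mean, the 3 LSD1 shRNA arrays stood at 0.22, 0.84 and 0.21. The second was the highest LSD1 shRNA array for 29 of the 39 genes, and for 36.2% of all genes. The HDAC5 shRNA arrays stood at -0.43, -0.39 and -0.39, close to each other. Without the second LSD1 shRNA array, 4 genes passed (10.3%, against 6.57% of all genes): CXCL1 (1.30, limma adjusted p = 0.035), CXCL3 (0.65, 0.0459) and TNFAIP3 (0.68, 0.0378) were higher and IL11 (-1.07, 0.0283) was lower. Just above the threshold were CCL20 (0.56, limma adjusted p = 0.0508), CXCL8 (1.50, 0.054) and IL6 (0.50, 0.0549). The median of the 39 was then 0.11, and again 27 values were above 0 and 12 below. Of the genes followed above, the values of IL1A (1.25), CXCL1, CXCL2 (0.65), CCL20, IL6, NFKBIA (0.36), ICAM1 (0.21) and IL1B (0.01) were smaller by over 1.5 times without that array. CSF1 turned from 0.21 to -0.14, neither of them called, and PTGS2 stood at 1.70. With scramble B left out as well, 0 of the 39 genes passed, against 0.97% of all genes, so this count is near the background. With the spread estimated over all 12 arrays, 16 genes passed (41.0%, against 19.2% of all genes), 14 higher and 2 lower, among them CXCL8 (limma adjusted p = 0.00311), TNFAIP3 (0.00376), CXCL3 (0.00634), CXCL1 (0.0111) and PTGS2 (0.0121).

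**Figure D4:**
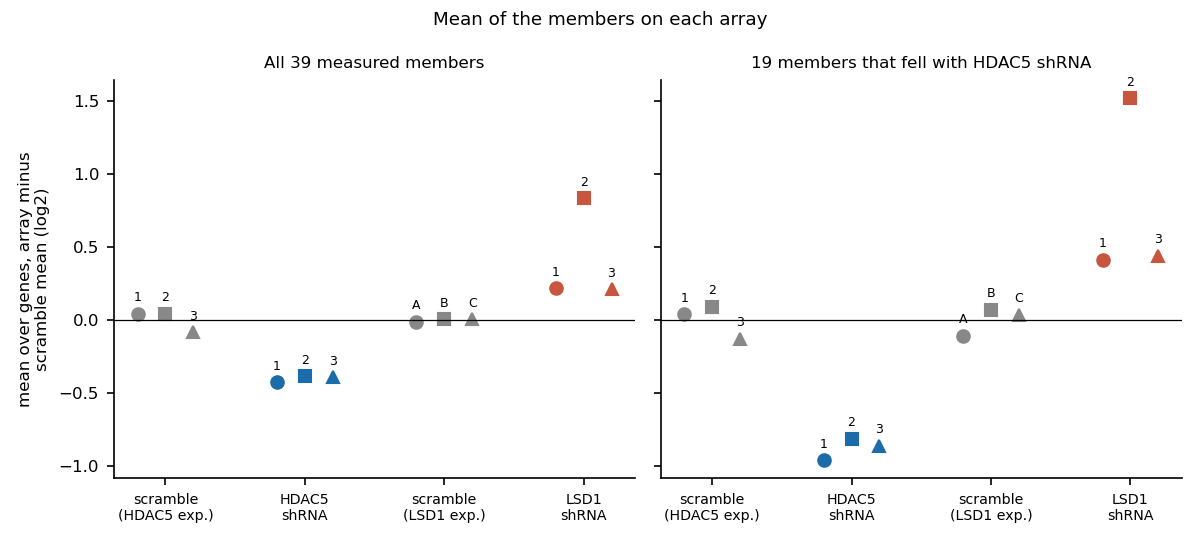
Mean over the 39 measured genes (left) and over the 19 that fell with HDAC5 shRNA (right) on each array, minus the mean of its scramble set (log2); labels give the replicate. The 3 HDAC5 shRNA arrays lie together below 0, on the right because those genes were picked by their fall on these arrays. The second LSD1 shRNA array stands at 0.84 and 1.52, above the other LSD1 shRNA arrays.

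The third comparison tests whether the changes with the 2 shRNAs differ, in a contrast over all 12 arrays. This contrast gives each gene 1 spread for both experiments. For PTGS2 the scramble and shRNA SDs were 0.16 and 0.17 in the HDAC5 experiment, against 1.21 and 0.93 in the LSD1 experiment. For such genes the adjusted p may be too small. The HDAC5 change was below the LSD1 change in 17 genes (43.6%, background 16.1%) and above it in 1, IL11 (2.56%, background 15.7%), at a limma adjusted p under 0.05. The 18 called genes made up 46.2% of the 39, against 31.8% of all genes. For 12 genes (30.8%, background 4.39%) the HDAC5 change was lower by at least 2-fold. The widest gap was in PTGS2 (-4.04, SE 0.74, limma adjusted p = 0.00152). CXCL8 (-3.33, SE 0.54, limma adjusted p = 0.000724) and CXCL1 (-3.29, SE 0.68, 0.00324) also had wide gaps. The gap of IL1A was -3.51 (SE 0.71, limma adjusted p = 0.00274) with the probe set used and -1.87 (0.000953) with the mean of its sets, and IL1A was below the lower quartile in 2 of the 4 groups, so its size is not exact. Of the feedback inhibitors, NFKBIA (-1.28, SE 0.28, limma adjusted p = 0.00444), TNFAIP3 (-1.25, SE 0.26, 0.00297) and NFKBIE (-0.45, SE 0.15, 0.0412) differed. IL11 had the opposite gap (1.94, SE 0.35, limma adjusted p = 0.00131), and such a gap of at least 2-fold was called for 3.16% of all genes. For 0 members were both single changes past the threshold with opposite signs. Each shRNA was studied in its own experiment, so a difference between the shRNAs and one between the experiments cannot be told apart.

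Set side by side, 15 of the 19 genes that fell with HDAC5 shRNA had an LSD1 value above 0, with a median of 0.65. Of all 2770 genes that fell with HDAC5 shRNA, 1661 had an LSD1 value above 0, with a median of 0.06. Without the second LSD1 shRNA array 13 of the 19 were above 0 (median 0.36), and 1290 of the 2770 (median -0.02). LIF, NFKB2, TNFAIP2 and IL18 were the 4 with LSD1 values below 0. The 2 comparisons have no array in common. The 19 genes averaged -0.96, -0.81 and -0.86 on the HDAC5 shRNA arrays and 0.41, 1.52 and 0.44 on the LSD1 shRNA arrays. The HDAC5 averages had to lie below 0, because the genes were picked by their fall on those arrays. Promoters were available for 15 of the 19, and 9 of these held a kB match, as did 5 of the 15 other members with a promoter.

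**Figure D5:**
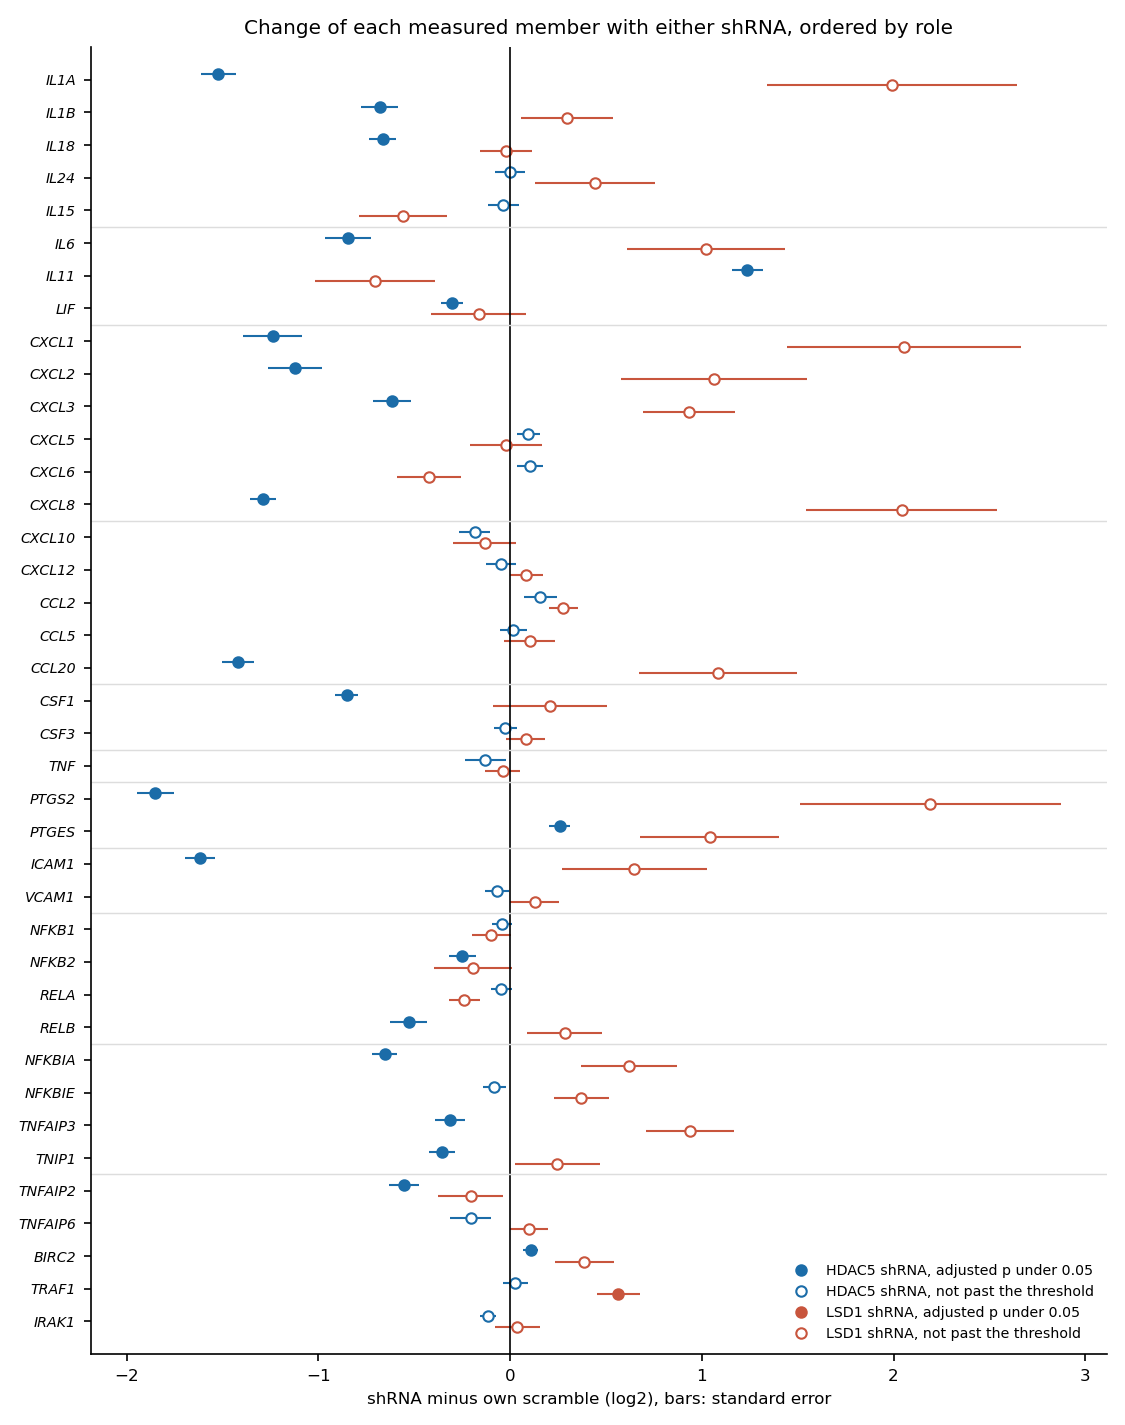
Log2 change of each of the 39 genes with HDAC5 shRNA (blue) and LSD1 shRNA (orange) against its own scramble arrays, in order of role, with standard errors; filled points passed a limma adjusted p of 0.05. Filled blue points lie mostly left of 0, down to PTGS2 at -1.85, with IL11 at 1.24 on the right, and TRAF1 is the only filled orange point.

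The 2 scramble sets are given as values only, since set and experiment cannot be told apart. IL11 stood at 7.59 ± 0.06 (SD, n = 3) in the untagged set and at 10.10 ± 0.29 in the set tagged LSD1. PTGS2 stood at 9.70 ± 0.16 and 7.24 ± 1.21, CXCL8 at 10.56 ± 0.06 and 8.83 ± 0.59, and CXCL1 at 7.67 ± 0.33 and 6.04 ± 0.18. The scramble arrays of the LSD1 experiment were lower for these 3 genes although their array medians were higher. IL18 (9.27 ± 0.04 and 9.41 ± 0.25) and CSF1 (8.98 ± 0.11 and 9.06 ± 0.21) were near each other in both sets.

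Genes that carry signals to NF-kB, and the receptors of the products above, were counted from lists of 77 names, of which 66 were measured. With HDAC5 shRNA 20 fell (30.3%, against 23.2% of all genes) and 8 rose (12.1%, against 21.3%). The share called in either direction, 42.4% against 44.5%, was near the background. ITGB2, the beta chain of the integrins that bind ICAM1, fell by 0.74 (SE 0.07, limma adjusted p = 1.7e-05). The GM-CSF receptor gene CSF2RA fell by 0.56 (SE 0.08, limma adjusted p = 0.000268). LIFR, the receptor of LIF, rose by 0.90 (SE 0.07, limma adjusted p = 2.55e-06). MAP3K8 (-0.61, SE 0.13, limma adjusted p = 0.0028), a kinase also called TPL2, and IL18R1 (-0.53, SE 0.09, 0.000549) fell as well, both from levels below the lower quartile. TNFRSF1A, the main TNF receptor, fell by 0.43 (SE 0.05, limma adjusted p = 5.23e-05), and IL1R1, the signalling receptor of interleukin-1, fell by 0.22 (SE 0.07, limma adjusted p = 0.0214). TNFRSF1B did not pass with either shRNA (-0.02, SE 0.08, and -0.01, SE 0.06) and was below the lower quartile in all groups.

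With LSD1 shRNA 4 of the 66 rose (6.06%, against 2.93% of all genes) and 0 fell (background 2.0%). The share called was 6.06%, against 4.92%, and 17 were at an unadjusted p under 0.05 (25.8%, against 22.0%). Those that rose were ITGB2 (1.21, SE 0.22, limma adjusted p = 0.0317), the adaptor kinase gene RIPK2 (0.78, SE 0.12, 0.0194), TAX1BP1, a partner of A20 (0.50, SE 0.08, 0.0245), and CYLD, a deubiquitinase that restrains NF-kB signalling (0.46, SE 0.09, 0.0388). TNFRSF1A had a value of -0.12 (SE 0.20, limma adjusted p = 0.795). IL1R1 had one of 1.17 (SE 0.34, limma adjusted p = 0.104), but it was below the lower quartile in both LSD1 groups, so this size is not exact. The changes with the 2 shRNAs differed in ITGB2 (-1.94, limma adjusted p = 0.00017), RIPK2 (-0.89, 0.000379) and TAX1BP1 (-0.84, 8.17e-05), with shRNA and experiment again not separable. CYLD rose with HDAC5 shRNA as well (0.37, SE 0.06, limma adjusted p = 0.00063), and its difference between them was -0.09 (limma adjusted p = 0.593).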

How the data were processed

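Total RNA of 12 MDA-MB-231 samples was hybridised to Affymetrix 3′ arrays of 22277 probe sets. Deposited values are log2 expression values that the authors made with RMA in the affy package, per the submitters' processing notes. RMA equalises the arrays it is given, which removes a change shared by most transcripts, and it compresses small signals. Versions, and whether RMA was run once on all arrays, are not given in these sources. The lower quartiles were 4.59 to 4.65 in the HDAC5 experiment and 5.18 to 5.27 in the LSD1 experiment, so the deposited values are not equalised between them. Of the probe sets, 62 were controls, 19064 were annotated by the platform table to a single symbol, 1043 to several and 2108 to none; 19052 symbols were matched to RefSeq through gene IDs. Each of 11963 genes was given its probe set of highest mean.

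Each shRNA was compared with its scramble set over 6 arrays by lmFit and eBayes with a trend (limma 3.58.1, R 4.3.3), and the changes were compared in 1 fit over 12 arrays. P-values were adjusted by Benjamini-Hochberg over all genes, with a threshold of 0.05, and the fits were tested on simulated data. Values are ± SD of 3 arrays, whose number limits the precision. Means below the lower quartile of the arrays were called below it. Array values are given for up to 14 genes per shRNA with the largest change among those called, and of the pathway lists up to 5, besides IL1R1, TNFRSF1A and TNFRSF1B. The kB consensus and AP-1 motifs were searched in RefSeq promoters. The members and lists were chosen with earlier results of these data known. Alternatives were 1 fit over 12 arrays, no trend, quantile normalization, averaged probe sets, no dim probe sets, a 2-fold minimum, the replicate block and leaving out each array.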

Additional observations from a re-analysis of the deposited data

Results flagged for a closer look

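For 18 genes the changes with the 2 shRNAs differed by the test of the difference (limma over 12 arrays, adjusted p under 0.05, background 31.8% of all genes). This test gives each gene 1 spread for both experiments, although some members spread more on the LSD1 arrays, and in it shRNA and experiment cannot be told apart. The values below are the HDAC5 change minus the LSD1 change on the log2 scale. Among the interleukins they were -3.51 for IL1A (-1.87 with the mean of its probe sets), -0.98 for IL1B and -0.64 for IL18. In the IL-6 family IL6 stood at -1.87 and IL11 at 1.94, the only value above 0 of the 18. The ELR chemokines gave -3.29 for CXCL1, -2.19 for CXCL2, -1.55 for CXCL3 and -3.33 for CXCL8, and CCL20 gave -2.50. IL1A and CCL20 were below the lower quartile with HDAC5 shRNA and in the LSD1 scramble set, so their sizes are not exact. CSF1 stood at -1.06, the cyclooxygenase gene PTGS2 at -4.04 and the adhesion gene ICAM1 at -2.27. Among subunits and regulators the values were -0.81 for RELB, -1.28 for NFKBIA, -0.45 for NFKBIE, -1.25 for TNFAIP3 and -0.54 for TRAF1. The second LSD1 shRNA array, which was the highest of its group for 29 of the 39 genes, enters each of these values. Without it 17 of the 18 were still called, NFKBIE was not, and CXCL6, which was below the lower quartile in all groups, was added. Under 16 alternative settings CSF1 was called in 8, NFKBIE in 6 and RELB in 13.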

How the results depend on the processing

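No called change turned its direction under the alternatives tried. With HDAC5 shRNA the 22 calls became 14 in 1 fit over 12 arrays (35.9%, against 29.4% of all genes) and 8 with a 2-fold minimum, and were 20 to 23 with an array left out. The fit over 12 arrays gives each gene 1 spread for both experiments, although members such as CXCL8 and IL1A spread more on the LSD1 arrays. With LSD1 shRNA the 1 call became 16 in 1 fit over 12 arrays (41.0%, against 19.2%) and 0 with a 2-fold minimum. It was 0 to 4 with an array left out (0.87% to 6.57% of all genes). It was 0 without scramble B and the second LSD1 shRNA array (0.97% of all genes), a setting added after seeing the data. Over these settings the adjusted p of TRAF1 lay between 0.00123 and 0.179. The 18 differences between the shRNAs were 15 to 21 with an array left out and 18 otherwise. Replicate numbers are shared by the HDAC5 experiment's groups only. Same-numbered arrays did not deviate together (correlations of -0.21 to -0.05, and 0 of the scramble arrays correlated best with their own number). With 3 arrays in a group this check cannot tell whether same-numbered samples were prepared together. The replicate block left 21 of the 22 calls. In the LSD1 experiment no paired analysis was possible because its scramble arrays carry letters. The 3 arrays of a group and signals near the array's lower quartile limit all sizes, and 5 genes (CXCL5, CXCL6, TNF, VCAM1, TNFAIP6) were below it throughout.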
